A study of Mus musculus with 72 samples.

Results

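Tumors were set against spleens harvested on day 23 from BALB/c mice with grafts of CT26, a colon carcinoma cell line of that strain. All 18 tumor libraries and all 18 spleen libraries of that day were used, 36 of the 72 libraries of the study, and the other 36 are tumor-draining lymph nodes. Each tissue holds 3 libraries of each of 6 arms, which are Isotype (the controls), CYTO, PD1, TS/CYTO, PD1/CYTO and the triple arm TS/PD1/CYTO, where CYTO and TS are written as in the labels, which do not spell them out. All animals share the BALB/c background, the CT26 graft and the harvest day, and no library comes from a mouse without a tumor, so a spleen here is the spleen of a tumor-bearing mouse and not a healthy one. Of the mice, 14 gave both tissues. Ages, sexes and doses are not given in the labels. The spleens were all sequenced in batch 4 and the tumors in batch 2 (4 fresh-frozen tumors, 1 each of Isotype, CYTO, PD1/CYTO and TS/PD1/CYTO) or batch 3 (14 tumors kept in RNAlater), so for every difference below tissue and batch cannot be told apart. In bulk RNA, fewer cells of a type and less RNA per cell cannot be told apart either.

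CT26 cells grow as a dense mass of spindle-shaped carcinoma cells that calls in macrophages, granulocytes, fibroblasts, vessels and some T cells. The mouse spleen is a lymphoid organ of B and T cell follicles (white pulp) set in a blood filter of iron-recycling macrophages (red pulp), and in the adult mouse it also makes red cells, platelets and granulocytes, an activity that rises under stress. Low oxygen stabilises HIF transcription factors, erythroid genes are switched on by GATA1, and type I interferon acts through the ISGF3 complex.

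Promoters are shown for pairs of genes that differed between the tissues, chosen among those with the letters searched for. Each is the 300 bases around a RefSeq start in the build GRCm38.p6. The first pair are genes of the response to low oxygen that were higher in tumors, with the core letters ACGTG of the HIF element, or its reverse complement, in capitals. P4ha2 encodes a collagen prolyl hydroxylase (chr11:54100674-54100973 on the plus strand) and Bnip3 a mitophagy receptor (chr7:138909457-138909756 on the minus strand). In Bnip3 the 2 matches, 1 on each strand, overlap in CACGTG, which is also an E-box.
P4ha2: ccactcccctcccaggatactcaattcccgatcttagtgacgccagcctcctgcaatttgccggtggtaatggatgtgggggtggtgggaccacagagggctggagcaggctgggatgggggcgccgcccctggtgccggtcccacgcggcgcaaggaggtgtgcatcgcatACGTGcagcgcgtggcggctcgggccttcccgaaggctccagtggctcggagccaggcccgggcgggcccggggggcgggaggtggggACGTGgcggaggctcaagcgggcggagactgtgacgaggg
Bnip3: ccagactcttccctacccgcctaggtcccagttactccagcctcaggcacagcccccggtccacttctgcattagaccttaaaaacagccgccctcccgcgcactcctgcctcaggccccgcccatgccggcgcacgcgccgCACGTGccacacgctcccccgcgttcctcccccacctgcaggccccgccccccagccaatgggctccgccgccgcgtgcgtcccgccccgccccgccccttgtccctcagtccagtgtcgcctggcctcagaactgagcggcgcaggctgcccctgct
The second pair are red-cell genes found in spleens, with the GATA motif AGATAA or its reverse complement in capitals. Alas2 encodes the first enzyme of erythroid heme synthesis (chrX:150547167-150547466 on the plus strand) and Kel a red-cell surface antigen (chr6:41704276-41704575 on the minus strand).
Alas2: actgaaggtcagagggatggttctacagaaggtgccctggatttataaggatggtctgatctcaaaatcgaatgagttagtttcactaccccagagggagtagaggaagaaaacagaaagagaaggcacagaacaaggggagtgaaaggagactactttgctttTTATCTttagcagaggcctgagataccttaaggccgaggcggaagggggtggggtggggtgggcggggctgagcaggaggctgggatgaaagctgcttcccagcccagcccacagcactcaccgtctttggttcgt
Kel: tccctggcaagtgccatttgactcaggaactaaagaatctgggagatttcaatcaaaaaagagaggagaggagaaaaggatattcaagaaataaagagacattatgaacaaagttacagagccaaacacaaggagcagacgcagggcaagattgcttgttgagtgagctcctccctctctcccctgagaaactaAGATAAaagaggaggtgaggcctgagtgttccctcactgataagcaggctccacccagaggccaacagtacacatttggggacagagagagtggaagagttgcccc
The third pair are interferon-stimulated genes that differed in opposite directions, with the core of the interferon-stimulated response element, TTTC, any 2 bases and TTTC again, in capitals. Ifit3, an antiviral tetratricopeptide protein, was higher in tumors (chr19:34583279-34583578 on the plus strand), and Rsad2, the antiviral enzyme viperin, was higher in spleens (chr12:26456403-26456702 on the minus strand).
Ifit3: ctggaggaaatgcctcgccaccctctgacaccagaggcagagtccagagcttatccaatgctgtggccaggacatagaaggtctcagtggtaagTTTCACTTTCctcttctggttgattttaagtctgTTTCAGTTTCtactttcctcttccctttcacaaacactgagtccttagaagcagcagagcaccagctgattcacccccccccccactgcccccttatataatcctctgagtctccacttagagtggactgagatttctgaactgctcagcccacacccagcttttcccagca
Rsad2: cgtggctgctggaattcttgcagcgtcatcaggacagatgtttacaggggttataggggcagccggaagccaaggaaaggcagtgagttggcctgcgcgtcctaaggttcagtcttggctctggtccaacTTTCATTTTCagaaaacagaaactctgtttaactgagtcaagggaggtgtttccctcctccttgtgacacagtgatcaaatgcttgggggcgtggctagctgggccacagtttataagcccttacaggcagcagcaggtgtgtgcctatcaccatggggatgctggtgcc
Searched on both strands, ACGTG was in the promoters of 11 of the 14 hypoxia genes with a promoter sequence (78.6%) and of 5886 of all 27025 genes (21.8%). AGATAA was in 8 of 17 erythroid genes (47.1%) and in 12.7% of all genes. The interferon element was in 8 of 12 type I interferon genes (66.7%) and in 3.99% of all genes. These are matches of letters in this window, and no binding was measured. The promoters shown were taken from members with a match, and others such as Klf1 and Gata1 had none.

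Values are log2(TPM + 1), where TPM is a length-scaled transcript abundance, and the lowest value of 0.01, called the floor here, stands for a TPM of 0 or 0.01. Of 16835 listed genes, 11967 were tested with limma, those exceeding the floor in 3 or more libraries. A gene was called where its adjusted p was under 0.05, called beyond 2-fold where limma's treat passed a threshold of 1 on the log2 scale, and called separate where the 18 tumors and 18 spleens did not overlap. The TPM of the listed genes summed to 821710 to 864649 in tumors and to 408819 to 596021 in spleens, and the median gene was 0.39 higher in tumors. Differences of about that size depend on the scaling, and many but not all of them are marked below. Counts without a mark are those of the deposited scale. The mean correlation of a library with the others of its tissue was 0.94 to 0.979, and with the other tissue 0.598 to 0.681, so no library stood with the other tissue. RNA integrity numbers were 4.5 to 7.8 in tumors and 6.0 to 9.0 in spleens, a difference that moves with tissue and whose part in the results was not tested beyond the covariate fit given with the alternatives.

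Tumors and spleens differed at most genes. In tumors 6668 genes were higher (55.7% of those tested) and in spleens 3128 (26.1%), together 81.9%. Beyond 2-fold, 2352 genes were higher in tumors (19.7%) and 1315 in spleens (11%), together 30.6%. No overlap between the 18 tumors and 18 spleens was found for 2440 tumor-higher (20.4%) and 1104 spleen-higher genes (9.23%), together 29.6%. List counts below are to be read beside these shares, since a count near its share does not set a list apart. The share of calls that were higher in tumors was 68.1% as deposited, 52.9% after quantile normalization and 42.4% after the listed TPM were rescaled to 1 sum, where the median gene differed by 0.04 and -0.13. Among calls beyond 2-fold, the direction held in each of the 6 arms for 2351 of 2352 tumor-higher and 1310 of 1315 spleen-higher genes. Over all calls the shares were 87.3% for tumor-higher and 87.0% for spleen-higher genes. The arms hold the same libraries that gave the calls, so this is a description and no separate support. Of the calls beyond 2-fold, 291 genes were at the floor in all 18 spleens and 307 at the floor in all 18 tumors. For these, levels are given in place of a fold.

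The largest tumor-higher difference was that of SPP1, osteopontin, a secreted matrix and cytokine-like protein made by tumor cells and macrophages (chromosome 5, 104435118 to 104441050, protein-coding). SPP1 lay between 11.95 and 12.55 in the 18 tumors (median 12.30) and between 0.01 and 1.26 in the 18 spleens (median 0.08), with 9 spleens at the floor. The difference in the 14 same-mouse pairs was 11.96 ± 0.13 (SE), over the arms it ran from 11.73 to 12.21, and limma's adjusted p over all 36 libraries was 2.16e-41. Every tumor was thus above every spleen by more than the whole spread within either tissue. TNFRSF12A, the receptor of the cytokine TWEAK and another of the 12 largest, was at 8.69 to 9.33 in tumors and 0.72 to 1.81 in spleens. HMGA2, an architectural chromatin protein of embryonic and tumor cells, was at 5.94 to 7.67 in tumors and at the floor in all 18 spleens, as were LGALS7, a galectin (7.73 to 9.02 in tumors), CCL7 and PRKG2, a cGMP-dependent kinase. The rest of the 12 were BAIAP2L1, an actin and membrane-curving adaptor, RPL39L, a ribosomal protein paralog whose reads may be shared with its close copy, the chemokines CCL8 and CCL2, LAMA5, a laminin chain, and TMEM119.

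**Figure D1:**
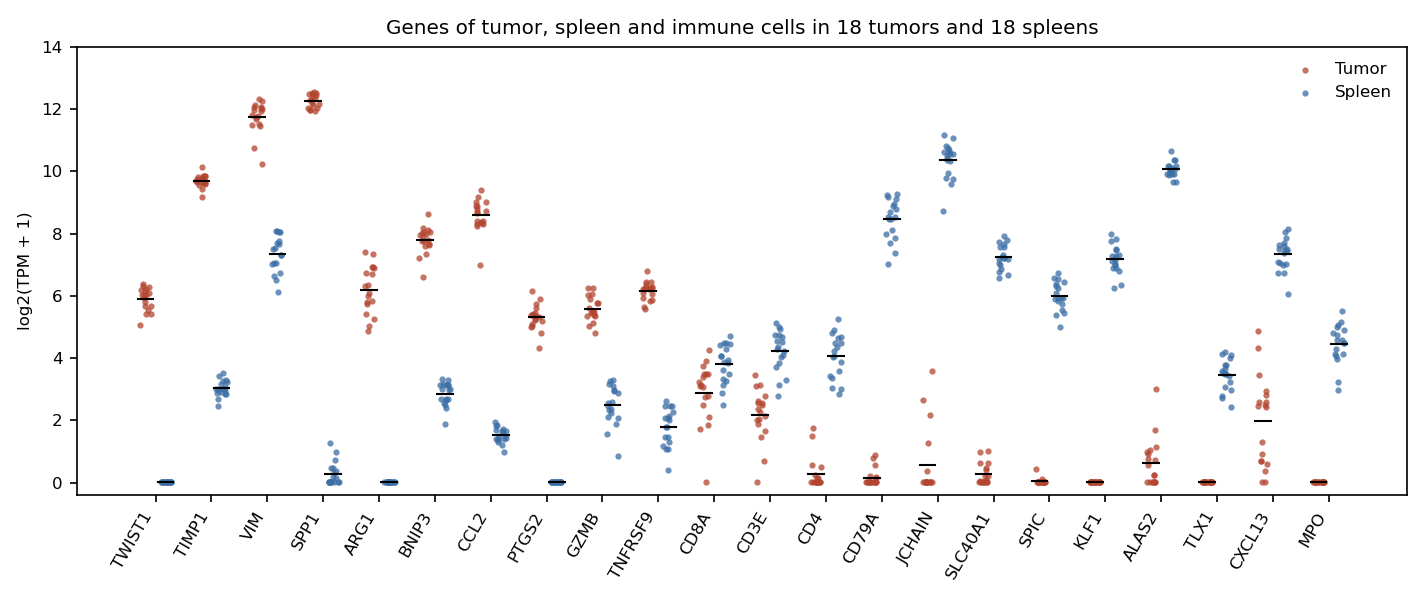
Values of 22 genes in each of the 18 tumors (red) and 18 spleens (blue) as log2(TPM + 1), 1 point a library, with the mean of each tissue as a black line. SPP1, TIMP1 and TWIST1 stand above every spleen, CD79A, KLF1 and SLC40A1 above every tumor, and CD8A and CD3E overlap.

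Genes that mark the tumor label were checked first among the lists. Mesenchymal factors were high and separate in tumors: TWIST1, a transcription factor of epithelial-mesenchymal transition, lay at 5.07 to 6.37 (median 6.03) in tumors and at the floor in all spleens. PRRX1, a homeobox factor of mesenchyme, was at 4.76 to 6.74 in tumors and 0.01 to 1.76 in spleens, a difference of 5.16 ± 0.19 (adjusted p = 2.99e-23). Of the 12 genes of this list 11 were higher in tumors, 9 of them beyond 2-fold, with a list median of 3.81 beside 0.39 for all genes. The intermediate filament VIM had means of 11.74 and 7.35, and fibronectin, FN1, 8.82 and 3.81. The exception was the cadherin CDH11, at 0.15 ± 0.35 in tumors and 1.73 ± 0.66 in spleens (SD, n = 18 each).

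Epithelial genes were split. EPCAM, the defining adhesion molecule of most carcinomas, was at the floor in all 18 tumors and at a median of 0.74 in spleens, and CLDN7 was at the floor in all tumors too, so these markers of the colon carcinoma label were absent from the tumors. The keratins KRT18, at 2.28 to 3.81 in tumors, and KRT20, an intestinal keratin at 5.00 to 6.88, were present in every tumor, while KRT18 did not exceed 0.04 in a spleen and KRT20 did not exceed 0.63. The EGF receptor ligand EREG (mean 5.33) and the surface protein PLET1 (mean 4.36) were at the floor in all spleens. Of 12 tested genes 8 were higher in tumors and 2 in spleens, the second being the tetraspanin TSPAN8, with means of 1.58 and 5.46. The other 8 genes of the list, CDH1 among them, were not above the floor in enough libraries to be tested.

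Genes that build and cut the extracellular matrix were mostly higher in tumors. Of 23 collagen and matrix genes 20 were higher in tumors and 1 in spleens, with a median of 1.70. After rescaling the counts were 18 and 3. COL1A2, a chain of type I collagen, had means of 7.99 ± 0.66 in tumors and 4.17 ± 0.66 in spleens (SD, n = 18 each), and COL1A1, the other chain, lay at 3.09 to 7.53 and 1.33 to 3.95, which overlap. The small proteoglycan BGN was the one called lower in tumors as deposited, with means of 6.27 and 7.27 (limma adjusted p = 5.8e-05). Its relative DCN was higher in tumors by 3.03. TIMP1, an inhibitor of metalloproteinases (chromosome X, 20870166 to 20874735, protein-coding), lay at 9.18 to 10.14 in tumors and 2.46 to 3.52 in spleens, the difference being 6.67 ± 0.07 (adjusted p = 3.86e-38). The urokinase PLAU, which activates plasmin, was higher by 4.16, the elastase MMP12 by 3.91, and the collagenase MMP13 was at the floor in all spleens with a tumor mean of 3.41. Of 16 protease and inhibitor genes 13 were higher in tumors, while MMP2 and MMP9, the gelatinases, did not pass, with means of 2.66 and 2.50 for MMP2 and 2.40 and 2.71 for MMP9 (called higher in spleens under both other scalings), and TIMP3 was higher in spleens.

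Genes induced by low oxygen, glucose use and amino acid stress were higher in tumors as groups. All 17 tested hypoxia genes were higher, 15 of them beyond 2-fold and 13 with no overlap, with a median of 2.60, although the smallest call, MXI1, was not called higher after rescaling. BNIP3, whose promoter is shown above, lay at 6.61 to 8.62 in tumors (median 7.84) and 1.87 to 3.33 in spleens (median 2.98), a difference of 4.94 ± 0.12 (adjusted p = 6.58e-28). P4HA2 was at 3.39 to 5.12 in tumors, and in spleens between the floor and 1.21. VEGFA, the main growth factor of vessels, had means of 6.27 and 3.79 and the glucose transporter SLC2A1 6.28 and 3.07. The difference of BNIP3 was 5.15 with the 4 fresh-frozen tumors and 4.88 with the 14 RNAlater tumors, so it was of like size in both kinds of tumor.

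Of 15 glycolysis genes 12 were higher in tumors, 11 beyond 2-fold, and 2 in spleens. After rescaling 11 were higher in tumors and 3 in spleens. Hexokinase divided by isoform: HK2 had means of 4.70 ± 0.82 in tumors and 0.67 ± 0.59 in spleens, and HK1 4.89 and 5.56, higher in spleens. The later enzymes PGK1, ENO1, TPI1 and PKM were each higher by 3.41 to 3.72. GAPDH, often taken as a constant reference, was at 10.26 to 12.03 in tumors and 8.11 to 8.83 in spleens, so the 2 tissues did not overlap. Of 18 genes of the amino acid response 17 were higher in tumors, among them the pseudokinase TRIB3 (4.31 to 5.25, floor in all spleens), the glutathione-degrading enzyme CHAC1 (means 4.21 and 0.03), the transcription factors ATF5 (8.13 and 3.24) and ATF4 (8.94 and 7.15), and the serine-synthesis enzyme PSAT1 (7.44 and 3.77). SLC7A11, the cystine transporter, did not pass (0.59 and 0.36), although it was called higher in tumors after quantile normalization. After rescaling 14 of the 18 genes of this list were called higher in tumors.

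**Figure D2:**
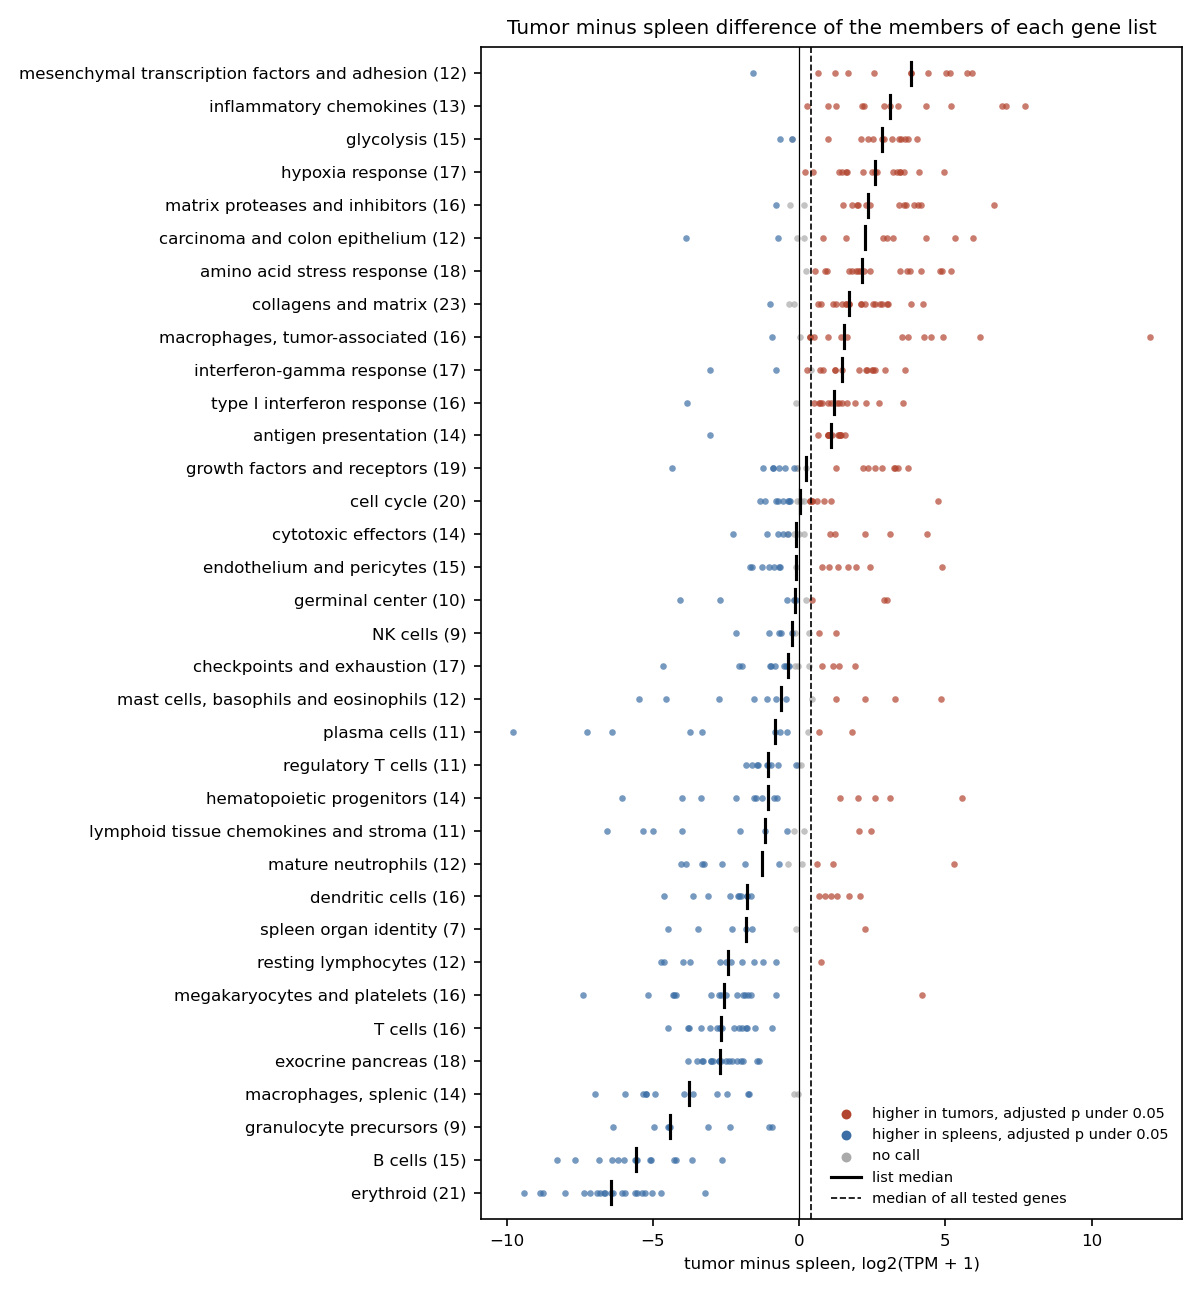
Tumor minus spleen difference in log2(TPM + 1) of each tested member of 35 gene lists (number tested in brackets), red where called higher in tumors, blue where called higher in spleens and grey where not called. Black bars mark list medians, from -6.44 for erythroid genes to 3.81 for mesenchymal genes, and the dashed line is the median of all tested genes, 0.39.

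Cell cycle genes were split as deposited and mostly higher in spleens under both other scalings. Of 20 genes 8 were higher in tumors and 8 in spleens as deposited, with a median of 0.03 beside 0.39 for all genes. After quantile normalization 3 were higher in tumors and 13 in spleens, and after rescaling 2 and 13. MKI67, a protein of dividing cells, lay at 3.13 to 5.95 in tumors and 5.53 to 7.12 in spleens, lower in tumors by -1.35 ± 0.21 (adjusted p = 7.09e-07), with overlap. The cyclin CCND1 was the member that stood apart, at 6.46 to 8.63 in tumors and 2.24 to 4.08 in spleens, whereas CCNE1, the S-phase cyclin, was higher in spleens by 1.16 log2 (tumor minus spleen -1.16). Among growth factor genes 9 of 19 were higher in tumors and 7 in spleens, beside 55.7% and 26.1% of all genes. The receptors MET (4.05 and 0.68) and FGFR1 (4.92 and 1.68) and the EGF family ligand NRG1 (3.74 and 0.02) were higher in tumors, and the growth factor IGF1 was higher in spleens, at 4.13 to 5.46 against 0.01 to 2.87.

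Vessel genes showed different members in each tissue. Of 15 endothelial and pericyte genes 7 were higher in tumors and 7 in spleens, beside 55.7% and 26.1% of all genes. After rescaling the counts were 5 and 8. APLN, a peptide of sprouting endothelium, was at 3.40 to 5.50 in tumors and at the floor in all spleens, and the sialomucin EMCN and the vessel-destabilising ligand ANGPT2 were higher in tumors by 2.41 and 1.95. The angiopoietin receptor TEK was at the floor in 16 tumors and at 0.65 to 2.51 in spleens, and ENG and KDR were higher in spleens by 1.63 and 1.05 on the log2 scale (tumor minus spleen -1.63 and -1.05). SELP, P-selectin of platelets and endothelium, had means of 5.16 and 0.96 and was the only 1 of 16 platelet genes to be higher in tumors. CD34, a sialomucin of endothelium and progenitors (chromosome 1, 194938819 to 194961279, protein-coding), lay at 8.11 to 9.07 in tumors and 2.30 to 3.59 in spleens. The progenitor list, which holds CD34, had 5 tumor-higher genes (with HOXA9, MECOM, GATA2 and RUNX1) beside 9 spleen-higher ones such as MYB, at the floor in all tumors and at a mean of 3.37 in spleens.

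Most spleen identity genes were higher in spleens. TLX1, a homeobox factor needed to form the spleen, lay at 2.44 to 4.19 in the spleens and at the floor in all 18 tumors, and the stromal factor TCF21, NKX2-5, NKX2-3 and WT1 were likewise at the floor in every tumor. Of the 7 tested genes of this list 5 were higher in spleens and 1 in tumors, and 1 did not pass. All 15 B cell genes were higher in spleens, 15 beyond 2-fold with no overlap, and 9 of them were at the floor in every tumor, which include MS4A1, PAX5 and the complement receptor CR2. CD79A, a chain of the B cell receptor, was at 7.04 to 9.26 in spleens and 0.01 to 0.89 in tumors. Summed over the list, B cell genes held 514 to 2390 TPM in spleens and 0.404 to 7.22 in tumors.

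Immunoglobulin constant genes gave the largest spleen-higher difference. IGKC, the kappa constant region (chromosome 6, 70726435 to 70726966, immunoglobulin constant gene), lay at 12.39 to 14.93 in spleens (median 14.24) and 0.21 to 7.72 in tumors (median 3.13), a difference of -10.61 ± 0.48 (adjusted p = 3.65e-20). The tumors were spread more widely than the spleens (SD 1.96 and 0.65, n = 18 each), and no tumor reached a spleen. The joining chain JCHAIN, made by plasma cells, was at the floor in 13 tumors and reached 3.59 in a TS/PD1/CYTO tumor, against 8.73 to 11.18 in spleens. MZB1 and POU2AF1, a chaperone and a coactivator of antibody-secreting cells, had spleen means of 7.40 and 6.41 and tumor means of 0.12 and 0.01. Of 11 plasma cell genes 8 were higher in spleens. SDC1, syndecan 1, used to sort plasma cells but also made by epithelial and tumor cells, was higher in tumors (3.27 to 4.69 against 0.93 to 3.16).

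Blood-forming genes filled the spleen side. All 21 erythroid genes were higher in spleens with no overlap, and 15 of them were at the floor in every tumor. KLF1, a transcription factor of red cell precursors (chromosome 8, 84901928 to 84905291, protein-coding), lay at 6.25 to 7.99 in spleens and was at the floor in all 18 tumors. ALAS2, whose promoter is shown above, was at 9.65 to 10.67 in spleens and 0.01 to 3.02 in tumors, a difference of -9.43 ± 0.19 (adjusted p = 1.7e-30). The transferrin receptor TFRC, which dividing cells also use, was the least apart, at means of 4.35 and 7.56. Granulocyte precursor genes behaved alike: 9 of 9 were higher in spleens, and the granule enzymes MPO and ELANE were at the floor in all tumors with spleen means of 4.45 and 4.42. LCN2, a siderophore-binding protein also made by epithelium, was the closest at 4.94 and 5.88. Of 16 platelet genes 15 were higher in spleens, with PF4 at 5.68 and 7.54, and GP9 and TUBB1 at the floor in all tumors.

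Macrophage genes sorted in part by tissue program. Of 16 tumor-associated macrophage genes 13 were higher in tumors, 8 beyond 2-fold, and 1 in spleens. After quantile normalization the counts were 10 and 2, and after rescaling 10 and 5. The complement genes C1QA, C1QB and C1QC had means of 8.21, 8.24 and 7.89 in tumors and 7.71, 7.86 and 7.54 in spleens; C1QA and C1QB were called higher in tumors as deposited and turned lower under both other scalings. ARG1, arginase 1 of alternatively activated macrophages, lay at 4.86 to 7.40 in tumors and at the floor in all spleens. TREM2, a lipid receptor of tissue and tumor macrophages, was at 4.40 to 6.20 in tumors and at most 0.53 in spleens, a difference of 4.90 ± 0.13 (adjusted p = 1.73e-27). FOLR2, a folate receptor of resident macrophages, had means of 4.37 and 0.10. In the splenic list 12 of 14 genes were higher in spleens. SPIC, the factor that drives red pulp macrophages, was at 4.99 to 6.73 in spleens and at the floor in 16 tumors, and SLC40A1, the iron exporter ferroportin (chromosome 1, 45908068 to 45926523, protein-coding), at 6.59 to 7.94 in spleens and at most 1.01 in tumors. The scavenger receptor MARCO, CD5L, ITGAD and STAB2 were at the floor in all tumors. VCAM1, an adhesion molecule of red pulp macrophages and of inflamed vessels, did not pass (6.79 ± 0.29 and 6.98 ± 0.58), nor did SIGLEC1 of marginal zone macrophages (2.54 and 2.57). Both were called higher in spleens under the other scalings, VCAM1 by -0.76 and -0.90 and SIGLEC1 by -0.37 and -0.60 (tumor minus spleen, quantile and rescaled), which makes 14 of 14 for the list there.

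Granulocyte genes differed by kind. Of 12 mature neutrophil genes 3 were higher in tumors and 7 in spleens, with a median of -1.28. Under both other scalings the counts were 2 and 8. The alarmin S100A8 lay at 3.61 to 6.46 in tumors and 8.22 to 10.43 in spleens, and the chemokine receptor CXCR2 was at the floor in 13 tumors and at 2.28 to 4.30 in spleens. PTGS2, cyclooxygenase 2, went the other way, at 4.34 to 6.16 in tumors and at the floor in all spleens, and the lectin CLEC4D was higher in tumors by 1.16 ± 0.19 (adjusted p = 1.02e-06). Mast cell proteases were higher in tumors: the tryptase TPSAB1 lay at 2.80 to 7.73 in tumors and 0.01 to 1.21 in spleens, and TPSB2, CMA1 and CPA3 were higher by 3.26, 2.25 and 1.27. The mast cell and progenitor receptor KIT and the high-affinity IgE receptor chain MS4A2 were lower in tumors (1.11 and 2.65, 0.07 and 0.51), and FCER1A did not pass. Eosinophil genes were found in spleens alone, PRG2 at 3.75 to 6.59 and the eotaxin receptor CCR3 at 3.50 to 5.36, with every tumor at the floor. In the whole list of 12 mast cell, basophil and eosinophil genes 4 were higher in tumors and 7 in spleens. Dendritic cell genes were higher in spleens for 10 of 16, among them CLEC9A and XCR1 of cross-presenting cells and the homing receptor CCR7, and higher in tumors for 6, among them TLR3 and FSCN1, an actin bundler that tumor cells also make.

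Chemokines split into inflammatory and lymphoid sets. All 13 inflammatory chemokines were higher in tumors, 10 of them beyond 2-fold, and after rescaling 12 were called. CCL2, which draws monocytes, lay at 6.98 to 9.41 in tumors and 0.99 to 1.93 in spleens, CCL7, its relative, was at the floor in all spleens, and the neutrophil attractant CXCL1 had means of 5.40 and 0.22. The lymphoid set was higher in spleens for 7 of 11 genes. CCL19, which guides T cells and dendritic cells in lymphoid tissue, lay at 5.08 to 7.37 in spleens and at the floor in all tumors, CXCL13 of B cell follicles at 6.07 to 8.15 against 0.01 to 4.87, and CXCL12 at 6.26 to 8.50 against 0.37 to 5.36. The lymphotoxin receptor LTBR and the lymphocyte cytokine IL7 were higher in tumors by 2.04 and 2.46. No member of the inflammatory set was higher in spleens under any of the 3 scalings.

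T cell genes were lower in tumors by uneven amounts. All 16 tested were higher in spleens, 15 beyond 2-fold, but the sizes ran from 0.93 lower for CD8A to 4.49 lower for CD2. CD3E, a chain of the T cell receptor complex, lay at 0.01 to 3.46 in tumors (median 2.32) and 2.79 to 5.13 in spleens (median 4.33), a difference of -2.05 ± 0.25 (adjusted p = 3.92e-09). CD8A of cytotoxic T cells was at 0.01 to 4.25 and 2.50 to 4.72, whereas CD4, the helper co-receptor also found on other leukocytes, was at the floor in 11 tumors, at most 1.74 in the rest, and at 2.84 to 5.25 in spleens. One tumor, the fresh-frozen PD1/CYTO tumor, was at the floor for CD3E, CD8A, TRAC and PDCD1. TCF7, a factor of resting and memory T cells, was at the floor in 13 tumors and at 3.31 to 5.81 in spleens. Of 12 resting lymphocyte genes 11 were higher in spleens, and FOXP1 was called higher in tumors as deposited but not after rescaling.

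Cytotoxic effector genes were split between the tissues. GZMB, a cytotoxic granule protease (chromosome 14, 56258838 to 56262260, protein-coding), lay at 4.82 to 6.26 in tumors and 0.85 to 3.29 in spleens, a difference of 3.11 ± 0.17 (adjusted p = 8.42e-18). PRF1, the pore-forming perforin, was at 3.80 to 5.39 and 0.74 to 3.33, and TNFRSF9, the activation receptor 4-1BB (chromosome 4, 150914562 to 150946102, protein-coding), at 5.57 to 6.81 and 0.40 to 2.63. None of these 3 overlapped between tissues, and each difference kept its sign in all 6 arms (2.51 to 4.07 for GZMB). IFNG, the cytokine of activated T and NK cells, was above the floor in 15 tumors and in 1 spleen. Of 14 cytotoxic genes 5 were higher in tumors and 5 in spleens, with a list median of -0.10, beside 55.7% and 26.1% of all genes, and after rescaling 5 and 8. GZMA did not pass (5.35 and 5.77) but was called higher in spleens under both other scalings, and CCL5 and the factors EOMES and TBX21 were higher in spleens. The NK receptor NCR1 had means of 2.16 and 3.18, higher in spleens, and KLRC1 and KLRD1, shared by NK and T cells, were higher in tumors by 1.25 and 0.68, the second no longer called after rescaling.

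Inhibitory receptors did not move together. Of 17 checkpoint and exhaustion genes 4 were higher in tumors and 10 in spleens, beside 55.7% and 26.1% of all genes. The list median was -0.39, and under both other scalings the counts were 4 and 11. PDCD1, the receptor PD-1, had means of 2.21 ± 1.00 in tumors and 0.85 ± 0.62 in spleens (SD, n = 18 each), TIGIT 3.81 and 1.90, and CD274, the ligand PD-L1, 4.04 and 2.89, all 3 higher in tumors. BTLA, an inhibitory receptor mostly of B cells, was at 3.60 to 5.45 in spleens and at the floor in all tumors, and CD96, CD160 and HAVCR2 were higher in spleens too. LAG3 did not pass (1.92 and 2.07), though under both other scalings it was called higher in spleens. The regulatory T cell factor FOXP3 was at the floor in all 18 tumors and at a median of 1.11 in spleens, and 9 of 11 genes of that list were higher in spleens with none higher in tumors.

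To set these levels against a T cell gene, each was also taken relative to CD3E, a chain of the T cell receptor complex, within a library and compared between the 2 tissues of the same mouse. In the 14 mice with both tissues CD3E was 2.34 ± 0.55 in tumors and 4.15 ± 0.67 in spleens (SD). Relative to CD3E, TNFRSF9 was higher in the tumor by 6.16 ± 0.61 (SD, n = 14, exact sign-flip permutation p = 0.000122, adjusted over 36 genes p = 0.000157), GZMB by 5.03 ± 0.70, PRF1 by 4.22 ± 0.69, TIGIT by 3.98 ± 0.54 and PDCD1 by 3.29 ± 0.64. Each was higher in 14 of 14 mice, and this p is the smallest that 14 mice allow. LAG3, HAVCR2, CTLA4, TOX, GZMA and CD8A were higher by 1.11 to 1.85, also in 14 of 14 mice. CCR8, at the floor in all 28 libraries, scored 1.81 on this scale, the difference in CD3E alone, so these 6 values are no larger than, or close to, that of a gene without signal, and TOX was at the floor in 6 tumors and 3 spleens. CD4 and TCF7 were lower relative to CD3E, by -1.87 and -2.82 in 14 of 14 mice, with 9 and 10 of the 14 tumors at the floor, S1PR1, the receptor for exit from tissue, by -0.75 in 13 of 14, and IL7R by -0.58 in 11 of 14 (adjusted p = 0.0258 by the exact permutation test). IL7R was at the floor in 7 of the 14 tumors, and its value was -2.44 with a pseudocount of 0.1. LEF1 and MKI67 did not pass, with -0.28 ± 0.81 and 0.64 ± 1.20 (adjusted p = 0.242 and 0.0774, exact permutation). FOXP3, at the floor in all 14 tumors, and CCR8 cannot be read on this scale, and IL2RA did not pass with a pseudocount of 0.1. Other cells than T cells make GZMB, PRF1 and TNFRSF9 too, and their part was not tested.

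**Figure D3:**
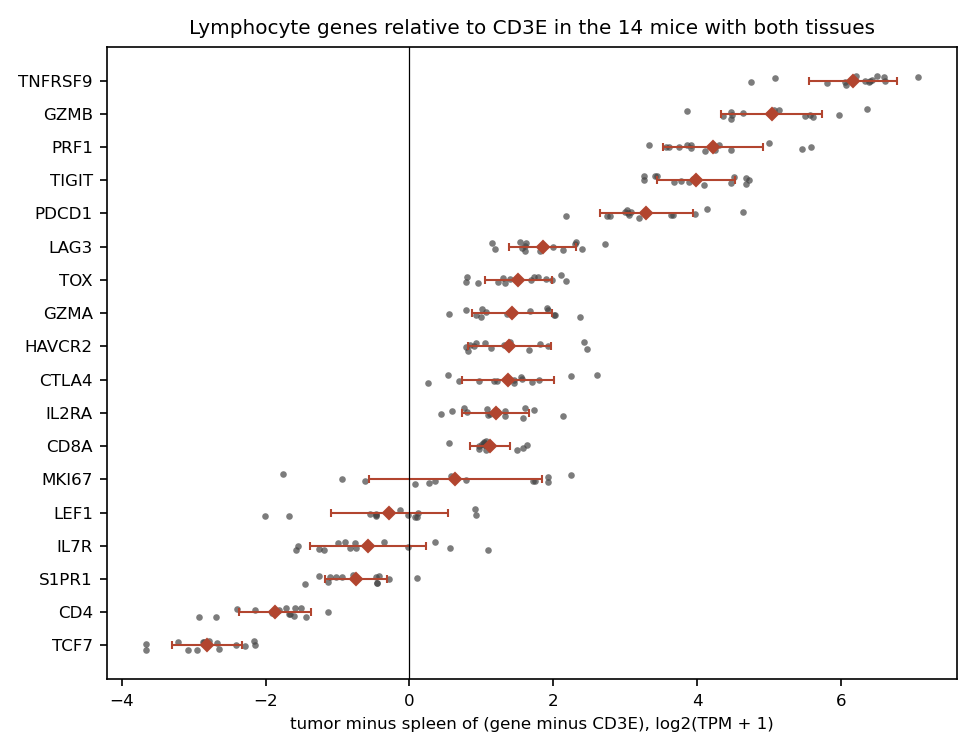
Tumor minus spleen difference of each gene relative to CD3E in log2(TPM + 1), 1 grey point for each of the 14 mice with both tissues, with the mean and SD in red. TNFRSF9, GZMB, PRF1, TIGIT and PDCD1 lie above 0 in every mouse and TCF7 and CD4 below 0 in every mouse.

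The same was done for macrophage genes relative to CSF1R, the receptor of the macrophage growth factor. CSF1R was at 4.76 ± 0.55 in tumors and 6.13 ± 0.75 in spleens. SPP1, TREM2 and GPNMB were higher relative to CSF1R by 13.33, 6.14 and 5.21 in 14 of 14 mice, but they were at the floor in 6, 10 and 13 of the 14 spleens. Tumor cells make SPP1 too, and the part of cells other than macrophages in these values was not tested. The mannose receptor MRC1, above the floor in every library, was higher by 2.41 ± 0.66. SLC40A1 and SPIC were lower by -5.54 and -4.52 in 14 of 14 mice, with 6 and 12 of the 14 tumors at the floor (exact permutation adjusted p = 0.000157 for each of these 6 genes). ARG1, at the floor in all 14 spleens, and MARCO, in all 14 tumors, cannot be read on this scale. The heme-degrading enzyme HMOX1 and the hemoglobin scavenger receptor CD163 did not pass, with -0.07 ± 0.57 and -0.19 ± 0.50 (SD, n = 14). Several of these values rested on the reference, since CD68, another macrophage gene, was itself higher relative to CSF1R by 1.84. With CD68 in place of CSF1R, HMOX1 and CD163 passed at -1.92 and -2.03 (exact permutation adjusted p = 0.000186 for both), MRC1 was 0.56 and GPNMB 3.37, and C1QA, C1QC and VCAM1, which were 1.92, 1.83 and 1.29 with CSF1R, were 0.074, -0.011 and -0.55.

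Interferon-responsive genes were mostly higher in tumors. Of 17 interferon-gamma genes 14 were higher in tumors and 2 in spleens, and of 16 type I interferon genes 14 and 1; after rescaling these counts were 10 and 3, and 10 and 2. GBP2, an interferon-induced GTPase, lay at 4.76 to 8.77 in tumors and 2.15 to 4.55 in spleens, and CXCL10 and CXCL11, ligands of the T cell receptor CXCR3, had means of 5.19 and 2.86, and 2.62 and 0.03. The tryptophan-degrading enzyme IDO1 was at the floor in all spleens (tumor mean 2.55). CIITA, the master regulator of class II genes, was lower in tumors (0.91 ± 0.90 and 3.96 ± 0.70), and so was CD74, the class II invariant chain, at 5.46 to 10.82 and 9.83 to 12.26. RSAD2 was the 1 type I gene higher in spleens, at 5.85 to 6.92 against 1.04 to 4.57 with no overlap, while OAS2, an RNA-sensing synthetase, was at 3.34 to 5.65 in tumors and at most 2.07 in spleens. ISG15 did not pass (6.97 and 7.08) and was called higher in spleens under both other scalings. Of 14 antigen presentation genes 13 were higher in tumors and CD74 alone was higher in spleens, beside 55.7% and 26.1% of all genes. Beyond 2-fold 3 of the 14 were higher in tumors, beside 19.7% of all genes, so that count does not set the list apart. The class I light chain B2M had means of 11.99 and 10.97, a call lost under quantile normalization.

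Other tissue was looked for in both organs. The 18 exocrine pancreas genes summed to a median of 57.8 and a highest of 13700 TPM in spleens, above 100 in 7 of them, and to 2.44 to 9.63 in tumors, where 14 of the 18 were at the floor throughout. The digestive enzyme CPA1 was at 9.08, 9.04 and 9.17 in the spleens of Isotype mouse 9, PD1 mouse 29 and TS/CYTO mouse 48. Without these 3 spleens 6577 genes were higher in tumors and 3019 in spleens. All 18 pancreas genes were higher in spleens in the comparison, and this list is given for that reason alone. The 12 muscle genes summed to 4.43 to 160 TPM in tumors and 13.4 to 22.8 in spleens, 1 tumor being above 100. The 10 adipocyte genes summed to 59.1 to 215 TPM in tumors, 5 of them above 100, and 8.68 to 61.6 in spleens, and the 9 keratinocyte genes to 5.99 to 86.8 and 0.705 to 5.43. The part of these tissues in other differences was not tested.

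Whether a treatment acted differently in the 2 tissues was asked with interaction terms. For PD1, the mean of 3 matched differences, 1 of 11967 genes passed (0.00836%), with 370 at an unadjusted p under 0.05. That gene was IGHE, the constant region of IgE, at the floor in all 18 tumors, so the term is the effect in spleens alone: -1.80, and a tumor minus spleen difference of 1.80 ± 0.29 (limma adjusted p = 0.0108). IGHE was at 4.60, 3.39 and 3.89 in the Isotype spleens, 1.67, 0.95 and 0.01 with PD1, 0.34, 1.79 and 0.60 with CYTO, 0.01 in all 3 with PD1/CYTO, 2.29, 2.25 and 1.02 with TS/CYTO, and 0.01, 0.62 and 0.69 with TS/PD1/CYTO. The 3 Isotype spleens were thus the highest of all 18. With the pseudocount of 0.1 no gene passed. For CYTO no gene passed (0%; 618 at an unadjusted p under 0.05), the smallest p being those of IGHE, SNORA16A and SUMF2 with a higher effect in tumors and of EPX, ALOX15 and GPER1 with a higher effect in spleens (smallest limma adjusted p = 0.0781). EPX, eosinophil peroxidase, was at the floor in all tumors and its effect in spleens was 1.26. For TS no gene passed either (0%; 857 at an unadjusted p under 0.05). The smallest p were those of EPX (spleen effect -1.37, limma adjusted p = 0.123), ARFGAP3 and CHD8, and of RERG, SNORA16A and CAMTA1 in the other direction. Leaving out 1 library, the spleen of TS/PD1/CYTO mouse 58, gave 343 and 24 genes for TS, so the count of 0 rests on that spleen.

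Expression was also set against tumor volume, which ran from 181 to 2198 mm3 in the mice with a tumor library and from 29 to 2198 in those with a spleen library. The listed TPM of spleens was 596021 at 175 mm3 and 408819 at 2198 mm3, but 455593 at 321 mm3. Slopes are those of the deposited scale. The part of these sums in the spleen slopes was not tested beyond the rescaled fit, where 1419 genes had the lower slope in tumors and 127 the higher. The slope in tumors differed from that in spleens for 617 genes (5.16%), 503 with the lower slope in tumors (4.20%) and 114 with the higher (0.953%). That split was not stable. It was 477 and 489 after quantile normalization, and 349 and 685 without the spleen of PD1/CYTO mouse 40, the one at 29 mm3. Of the 5 largest in the first group 3 were mast cell genes: CPA3, a mast cell carboxypeptidase (chromosome 3, 20215620 to 20242181, protein-coding), changed by -1.15 per doubling of volume in tumors and -0.17 in spleens, a difference of -0.99 ± 0.19 (limma adjusted p = 0.00314), and TPSAB1 and CMA1 differed by -0.95 and -0.91. In the smallest tumor, of 181 mm3 and fresh-frozen, CPA3 was 6.10 and TPSAB1 7.73, and in the largest, of 2198 mm3, they were 0.59 and 2.85. Of 12 mast cell, basophil and eosinophil genes 5 were called this way. CXCL13 had slopes of -1.22 and -0.23, and APOL6, an interferon-induced apolipoprotein at the floor in all spleens, -0.97 in tumors. The genes with a higher slope in tumors were led by RPGRIP1, EIF4EBP3 and SNORA57, each at the floor in some tumors, CEP131, a centriolar protein, and STAB1, a scavenger receptor of macrophages and sinusoidal endothelium, with slopes of 0.47 and -0.14.

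**Figure D4:**
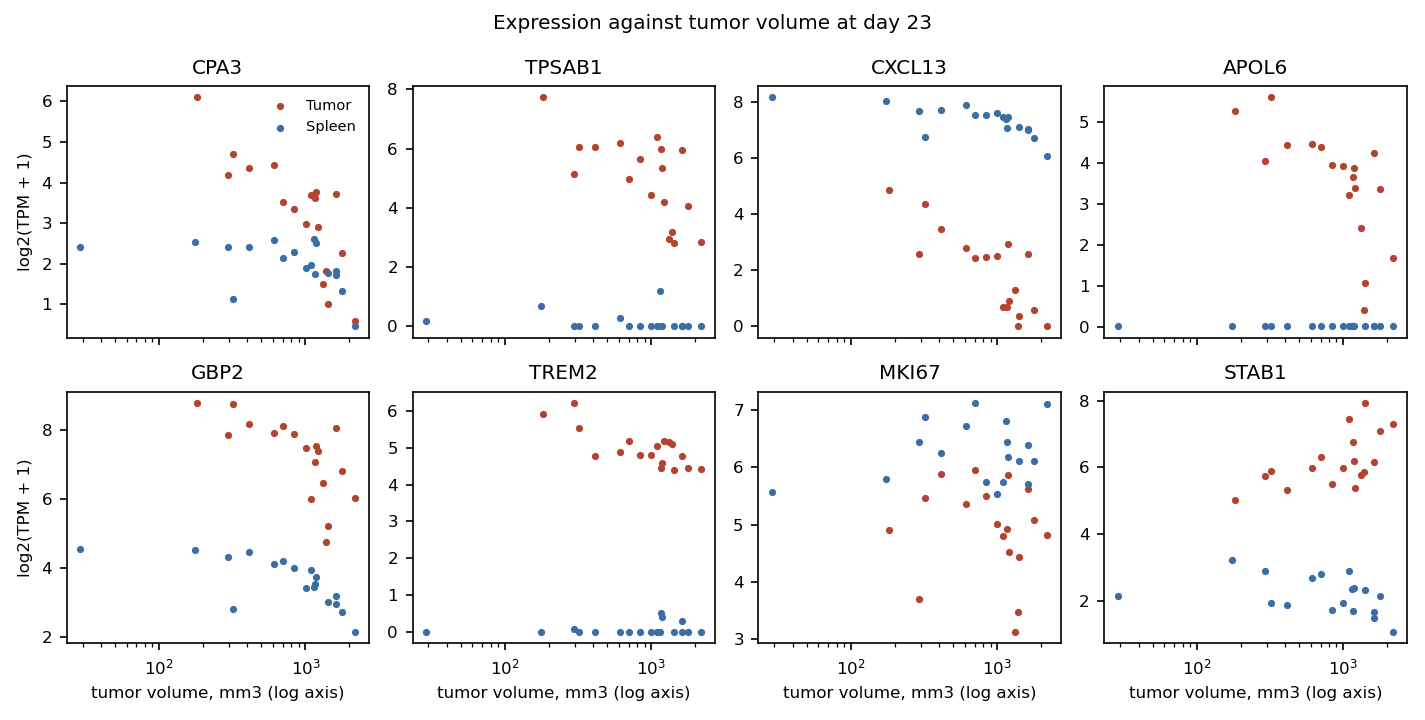
Values of 8 genes in log2(TPM + 1) against tumor volume in mm3 on a log axis, for 18 tumors (red) and 18 spleens (blue). CPA3, TPSAB1 and CXCL13 have slopes of -1.15, -0.98 and -1.22 in tumors and -0.17, -0.03 and -0.23 in spleens, and APOL6 is at the floor in all spleens.

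Most cell cycle genes had a negative slope in tumors and a positive one in spleens, CCND1 (-0.14 and -0.21) and MCM3 (0.12 and 0.10) being the exceptions among 20. For 11 of 20 genes the slope was lower in tumors, with a list median of -0.12 in tumors and 0.19 in spleens, beside -0.11 and -0.08 for all genes. The cyclin CCNB1 had -0.17 and 0.22 (limma adjusted p = 0.0242) and the kinase AURKA -0.19 and 0.19 (0.0167), while MKI67 and TOP2A did not pass. In the 14 mice with both tissues none of the 20 passed (lowest limma adjusted p = 0.106), and MKI67, TOP2A, PLK1, MCM3 and CCND1 had differences above 0 there. Interferon-gamma genes had negative slopes in both tissues, with medians of -0.70 and -0.27; 4 of 17 were steeper in tumors (CXCL9, CXCL11, IDO1 and IL18BP), and GBP2, at -0.81 and -0.31, did not pass (adjusted p = 0.108). Of 16 type I interferon genes 5 were called, among them ISG15 and RSAD2, with spleen slopes of 0.15 and 0.10 and tumor slopes of -0.38 and -0.54. Of 16 tumor macrophage genes 7 were called, such as TREM2 and ARG1, at the floor in 14 and 18 spleens. None of the 16 T cell genes was, although on the deposited scale all 16 had negative slopes in both tissues. Their medians were -0.58 in tumors and -0.24 in spleens, beside -0.11 and -0.08 for all genes. IFNG was called (-0.66 and -0.03), and GZMB and PRF1 were not, at -0.29 and -0.25, and -0.22 and -0.29. When the tumor minus spleen difference of the same 14 mice was regressed on volume, 12 genes passed, 7 of them among the 617: TNIP3 (a repressor of NF-kappaB signalling), PLA2G16 and CLEC12A with a lower slope in tumors, and LGALS4, IPO4, ERCC1 and FAM193B with a higher one. All 617 kept their sign in that fit, but it reuses libraries that gave the calls, so the signs are no separate support. Of the 617, 70 were at the floor throughout 1 tissue, where the shared estimate of spread is too small for the other.

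**Figure D5:**
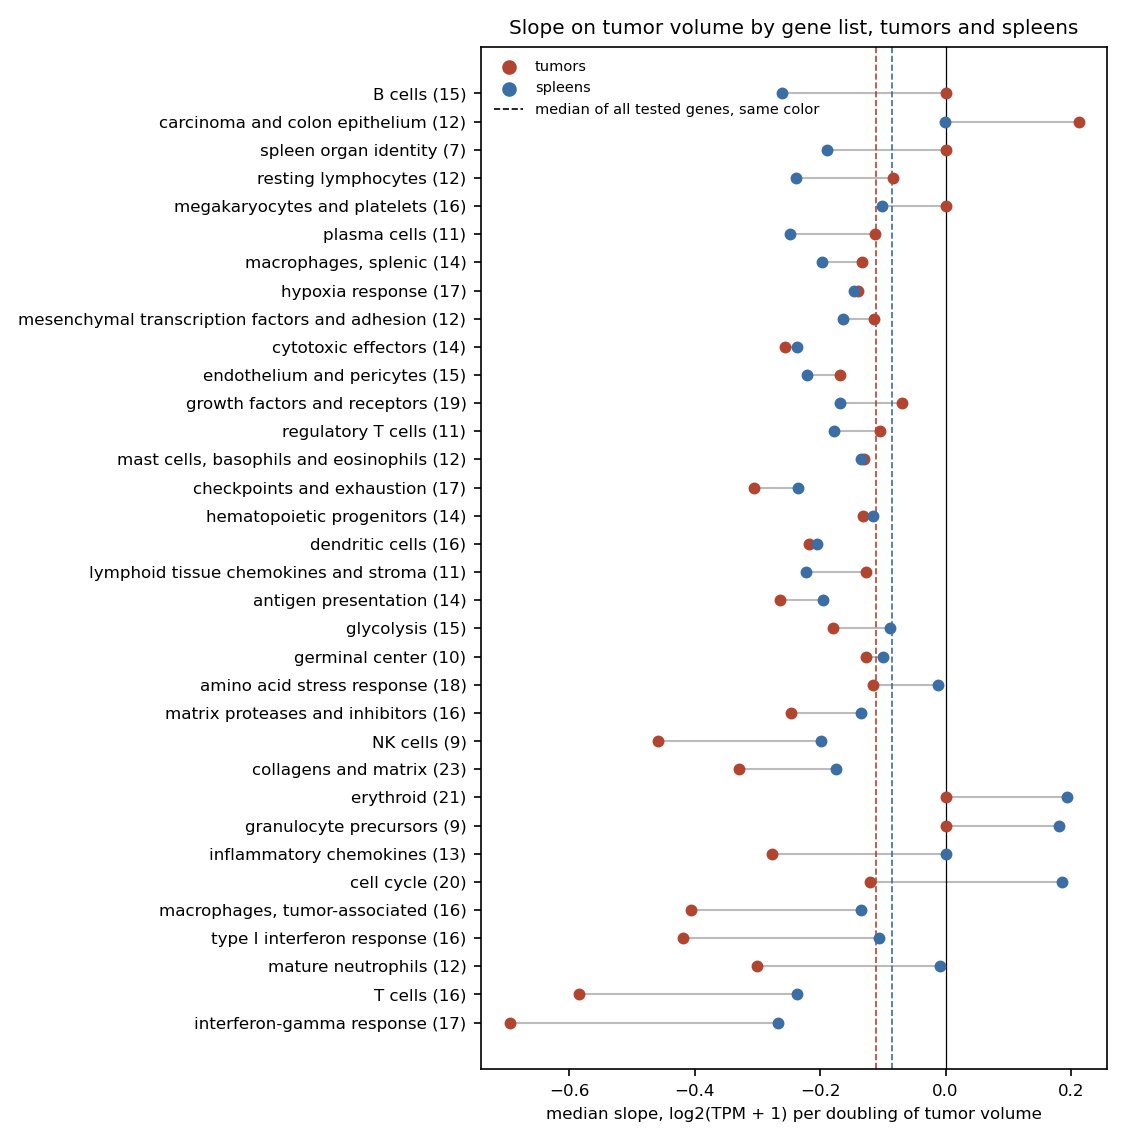
Median slope of each gene list, those of pancreas, muscle, fat, skin and nerve left out, in log2(TPM + 1) per doubling of tumor volume, in tumors (red) and spleens (blue), with the medians of all tested genes as dashed lines. Interferon-gamma genes have the lowest median in tumors, -0.70, and the cell cycle, erythroid and granulocyte precursor lists have medians above 0 in spleens, the last 2 being mostly at the floor in tumors. Slopes are those of the deposited scale.

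Whether mice high for a gene in the tumor were high in the spleen was asked for 11 genes in the 14 mice. None passed adjustment. CXCL9 had a Pearson r of 0.51 (permutation p = 0.0653, adjusted p = 0.203) and a Spearman rho of 0.49, and r was 0.34 without the 2 mice farthest from the median in spleen. C1QA had r = 0.50 and rho = 0.62 (permutation p = 0.0195, adjusted p = 0.215), with r = 0.14 without 2 mice. For GBP2, ISG15, IFIT3, CD8A, GZMB, PDCD1, S100A8 and MKI67 r was between -0.43 and 0.44.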

How the data were processed

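The table analysed holds log2(TPM + 1) for 16835 upper-case mouse gene symbols. TPM, a length-scaled transcript abundance, were made by the authors with RSEM 1.3.0 and STAR on mm10, after bcl2fastq 2.20, per the submitters' processing notes, and then put on the deposited log2 scale. Libraries were paired-end, stranded and polyA-enriched, per the labels' protocols. Read depth is unknown. Hemoglobin and most class II genes were not analysed here.

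Genes above 0.01 in at least 3 of 36 libraries (11967) were tested with limma 3.58.1 (R 4.3.3; trend, robust, Benjamini-Hochberg at 0.05, treat at a log2 threshold of 1) with tissue and arm as terms; interaction fits used cell means, or log2 tumor volume, with a fresh-frozen term. Fold changes are on the log2(TPM + 1) scale, which understates the change of low genes. Same-mouse ratios used exact sign-flip permutation over 14 mice, and correlations random permutations (Python 3.11.15, scipy 1.17.1). The scripts were tested on simulated data.

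Replicates are separate mice. The mouse number in the titles pairs a tumor and a spleen of the same animal for 14 mice; same-mouse residuals correlated at a median of 0.04 (-0.21 to 0.43), and no 2 libraries were identical. Members, gene lists and tests were chosen with earlier results of these data known. Named genes are the 12 largest differences in each direction without overlap, members of the lists, and the leading interaction genes; the 7 genes shared by the paired volume fit were named after their values were seen. Promoters and coordinates come from RefSeq GRCm38.p6 and GENCODE M21 on GRCm38; 16277 symbols matched 1 GENCODE symbol. Alternatives covered scaling, pseudocount, filters, RNA integrity, batch, pairing and leaving out each library. Values of a few listed genes are not reported here.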

Additional observations from a re-analysis of the deposited data

Results flagged for a closer look

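One treatment term and 10 volume terms were called different between tumors and spleens by limma. For PD1, the IGHE effect in tumors minus that in spleens was 1.80 ± 0.29 (SE, limma adjusted p = 0.0108). All tumors were at the floor, so the term is the effect in spleens alone, set against a spread that tumors without signal make too small, and the call was lost with a pseudocount of 0.1 and without fresh-frozen tumors, while the stricter filter removed the gene. The Isotype spleens, at 3.39 to 4.60, were the highest.

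For tumor volume, the slope in tumors minus that in spleens, per doubling, was positive for RPGRIP1 (1.29), EIF4EBP3 (1.12), SNORA57 (0.96), CEP131 (0.62) and STAB1 (0.61). It was negative for CXCL13 (-0.99), CPA3 (-0.99), APOL6 (-0.97), TPSAB1 (-0.95) and CMA1 (-0.91). These are the 5 largest in each direction among 617 calls by limma. RPGRIP1 was at the floor in 11 tumors, EIF4EBP3 in 8 tumors and 17 spleens, APOL6 in 18 spleens, where its term is the slope in tumors alone, and TPSAB1 in 13 spleens. None of the 10 passed in the 14 mice with both tissues, where limma gave adjusted p values from 0.0576 to 0.175. All 10 kept their sign there, but these mice were among those that gave the calls, so this is no separate support.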

How the results depend on the processing

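The tissue counts, 6668 higher in tumors and 3128 in spleens (2352 and 1315 beyond 2-fold), became 4016 and 5454 (1366 beyond 2-fold in tumors) with the listed TPM rescaled, 3935 and 1075 (1146 and 388) with the stricter filter, which tested 5983 genes, and 1536 beyond 2-fold in tumors with batch 2 tumors alone. RNA integrity as a covariate gave 6559 and 2492, and batch 3 tumors alone 7109 and 2933. Leaving out 1 library gave 6545 to 6913 and 3038 to 3197, and 2284 to 2510 and 1290 to 1361 beyond 2-fold. Under quantile normalization C1QA (-0.17), C1QB (-0.29) and CD68 (-0.18) reversed, after rescaling C1QA (-0.21), C1QB (-0.33), CD68 (-0.35), MXI1 (-0.19) and TOP2A (-0.087), and with batch 2 tumors alone CTLA4 (0.085), FOXP1 (-0.10) and MXI1 (-0.14); the cause was not tested.

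With the mouse as a replicate block (14 paired mice) 7050 and 2882 genes were called, and with the mouse as a random effect 6826 and 3166; the block changed no other count of tissue calls by over 1.5 times. The volume calls, 114 higher in tumors and 503 in spleens, fell to 9 and 3 with the replicate block. The random-effect block gave 1 and 1 for CYTO and 1 in tumors for TS, against 0.

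For PD1, 2 and 3 genes passed under quantile normalization, and 0 with a pseudocount of 0.1, with the stricter filter and without fresh-frozen tumors. For CYTO 1 passed without the fresh-frozen term. Leaving out 1 library gave 1 to 6 and 0 to 0 for PD1, 0 to 1 and 0 to 2 for CYTO, and 0 to 343 and 0 to 24 for TS. For CYTO 1 to 3 genes passed without the spleens of mice 9, 18, 19, 30, 40, 50 or 58, and for TS 1 to 2 without the tumors of mice 39 or 59 or the spleen of mouse 40. The PD1 count of 1 became 6 without the tumor of TS/PD1/CYTO mouse 59 and 2 without that of PD1/CYTO mouse 32.

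Volume calls were 489 in tumors and 477 in spleens with quantile normalization. They were 127 and 1419 after rescaling, and 70 and 451 with the stricter filter. Without the fresh-frozen term they were 55 and 257, and without fresh-frozen tumors 363 and 690. They were 60 and 326 without 3 spleens carrying pancreas RNA, and 43 and 200 with arm terms. The last 3 settings and the volume block were chosen after seeing the data. Leaving out 1 library gave 26 to 685 and 173 to 994. Without the spleen of mouse 40 the counts were 685 in tumors and 349 in spleens, so the larger side changed. The total of 617 moved by over 1.5 times without the tumors of mice 12 (1066), 18 (318), 20 (401), 30 (973), 32 (408), 38 (1123), 52 (1011), 59 (208) and 60 (200) and the spleens of mice 30 (379), 40 (1034), 58 (323) and 60 (1133).

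Of the 36 same-mouse ratios, 32 to 33 passed without 1 mouse. FOXP3 reversed with a pseudocount of 0.1 (-1.07), and LEF1 (-0.79), MKI67 (0.84) and CD163 (-0.91) then passed. C1QC (-0.011) and VCAM1 (-0.55) reversed with CD68 as the reference, where HMOX1 (-1.92) and CD163 (-2.03) passed. With only 14 pairs, 1 batch of spleens and an unknown depth, low genes and differences near the median shift of 0.39 are the least certain.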
